A study of Sus scrofa with 26 samples.

Results

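Cholesterol is built from acetyl-CoA through mevalonate, isoprenoid phosphates, squalene and lanosterol. Here 7 enzymes of that route were followed in the subcutaneous adipose tissue (SCAT) of pigs: HMGCS1, IDI1, FDFT1, SQLE, LSS, CYP51A1 and DHCR7. The transcripts of these enzymes are known targets of the SREBP transcription factors, which are released when membrane sterol is low. Adipose tissue holds a large store of cholesterol in its fat droplets, much of it taken up from lipoproteins.

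A probe was taken as a member when its gene symbol, its accession or the text of its description on the array named one of these 7 genes, which gave 18 of the 60305 probes of the array (7 of 11787 named genes). Of these, 15 probes from 6 of the 7 genes were well above background on at least 8 arrays and were tested with the 44703 probes that met the same condition. Expression was measured on 26 one-colour Agilent arrays, 1 per castrated growing pig, in SCAT of Creole pigs, of Large White (LW) pigs and of their F1 cross. Pigs were slaughtered in the thermoneutral condition (TN, 24 °C) or during heat stress (HS), for which the sample labels give 30 °C and the series text 32 °C. The series text gives 5 days of exposure and the methods of the study 4 or 5, and the labels do not say which applied to a pig. The groups were Creole TN (n = 3), Creole HS (n = 5), F1 TN (n = 4), F1 HS (n = 5), LW TN (n = 4) and LW HS (n = 5). Every HS pig was slaughtered later than the TN pigs, so temperature and the days that passed cannot be told apart. Littermates were spread over pens and temperatures, and neither litter nor pen is in the labels, so related pigs are treated here as separate samples. Levels are log2 values of quantile-normalised pixel intensities, which order arrays for 1 probe but do not rank 1 probe against another.

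Between 41313 and 46184 probes (68.51 to 76.58% of the array) were well above background on an array, with a median of 43270. No spot was saturated, and each of the 5 slides held both temperatures. Slide 1 held 1 TN array, and of the 4 slides with both LW and Creole pigs, slides 3 and 5 held 1 Creole array each. The tissue label was borne out by adipocyte markers such as ADIPOQ, which were well above background on all 26 arrays. Several other markers moved with temperature. Of 4 red blood cell markers 1 was lower under HS, HBB (haemoglobin), which fell by 0.85 on the log2 scale (limma, adjusted p = 0.011), while AHSP was at -0.47 (adjusted p = 0.0521), ALAS2 at 0.04 and SLC4A1 at 0.06. The score of these 4 markers ranged from -0.16 to 0.60 in TN and from -0.61 to 0.44 in HS arrays. In the same contrast 3 of 8 nerve and Schwann cell markers were higher (score -0.69 to 0.14 in TN and -0.20 to 0.70 in HS), 4 of 5 fibroblast markers were higher (score -0.98 to 0.37 and -0.20 to 0.68), and 3 of 6 adrenal cortex markers were lower (score -0.02 to 0.54 and -0.79 to 0.26). Of 4 endothelial markers 1 was lower, and of 7 adipocyte markers 1 was higher. None of the 9 tested skeletal muscle, 8 macrophage or 3 keratinocyte markers passed the test. In bulk tissue, fewer cells of a type and less RNA per cell cannot be told apart.

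The annotation of the pig assembly Sscrofa11.1 (RefSeq) places HMGCS1 at chr16:27936225-27957261, SQLE at chr4:14669789-14700152, FDFT1 at chr14:14976259-15010701, CYP51A1 (listed there as CYP51) at chr9:72057506-72079587 and DHCR7 at chr2:2377352-2391846. LSS lies on a sequence that is not assigned to a chromosome, from 519582 to 554042 of that sequence. IDI1 was not matched in that table. The array file lists no genome position for its probes, so whether a probe lies in an exon, an intron or a UTR is not given here.

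Because the probes of a gene did not always behave alike, the probes that the results turn on are shown as the array file holds them, 5′ to 3′. For IDI1 and DHCR7 the pair of tested probes is shown because their results differed, and for LSS and CYP51A1 the brightest tested probe, from which their breed difference is given. Only the first 30 bases of A_72_P095631, A_72_P224342 and A_72_P177531 are given. Capitals mark TTTATT, the reverse complement of the polyadenylation hexamer AATAAA.
IDI1 A_72_P095631: cggctgtcccataattgtcagactactatc
IDI1 O10086: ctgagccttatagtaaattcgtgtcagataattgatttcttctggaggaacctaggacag
DHCR7 A_72_P224342: gggctcacgattcTTTATTgagacgtacct
DHCR7 A_72_P144016: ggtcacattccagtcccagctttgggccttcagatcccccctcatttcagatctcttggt
LSS O7666: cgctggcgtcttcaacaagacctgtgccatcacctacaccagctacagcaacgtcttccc
CYP51A1 A_72_P177531: atctgcctggtaatcgctccacatggttgc

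The hexamer AATAAA occurred in 4 of the 18 member probes and in 10.3% of all probes, and TTTATT in 2 member probes and in 4.32% of all probes. The probe A_72_P095631 had no reading frame without a stop codon on either strand. Of all probes 80.3% had at least 1 such frame as printed and 79.7% as the reverse complement. The share that lacked one on both strands was not counted. FDFT1 O10068, named by symbol, also had 0 such frames as printed, but 2 as the reverse complement. The SQLE probes A_72_P088686 and A_72_P444903 shared a run of 57 bases and are therefore a repeated measurement of 1 target. No other member probe shared a run of 20 or more bases with any probe of the array, on either strand. The probes A_72_P095631 of IDI1 and A_72_P224342 and A_72_P144016 of DHCR7 were named only by the words of the description column, which refer to proteins of other mammals, so their gene names are less certain than those of the other 15.

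The first question was whether these enzymes differed between HS and TN pigs once breed was in the model. IDI1, LSS and DHCR7 passed the test on their brightest probe, 1 upwards and 2 downwards, and FDFT1, SQLE and CYP51A1 did not. The upward call is that of IDI1 A_72_P095631. With only the probes named by symbol or accession, 5 genes were tested and 2 passed, LSS and IDI1, both lower under HS. In all, 3 of the 6 tested genes passed (adjusted p below 0.05 over all tested probes), beside 12.6% of all named genes (4.94% higher and 7.67% lower). Counted by probe, 4 of 15 passed, 1 higher and 3 lower, where 12.2% of all tested probes passed, 5.18% upwards and 7.02% downwards. The median change of the 6 genes was -0.08 on the log2 scale, and that of all named genes was -0.0047. With IDI1 read by its other probe, O10086, the median of the 6 genes was -0.29. With 15 probes of 6 genes these counts are a description of the members and no test of them as a group. Adding the red blood cell score to the model left 0 of the 6 genes and 0 of the 15 probes past the threshold, and lowered the share of all probes that passed from 12.2% to 2.95%. The changes themselves were then -0.33 for DHCR7 (-0.34 without the score), 1.096 for IDI1 A_72_P095631 (0.94), -0.22 for LSS (-0.33) and -0.30 for IDI1 O10086 (-0.46), with adjusted p of 0.136, 0.0872, 0.284 and 0.164. The part of the nerve, fibroblast and adrenal cortex markers was not tested.

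**Figure D1:**
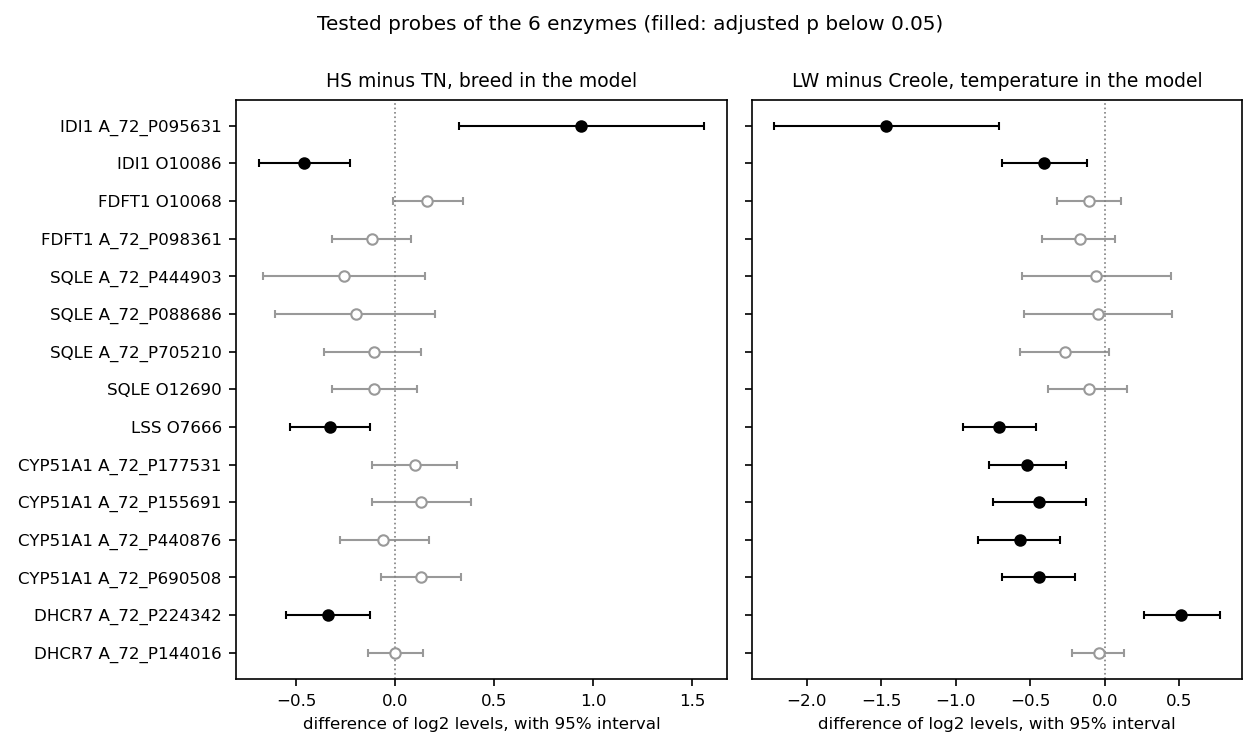
Difference of log2 levels for each of the 15 tested probes, HS minus TN (left) and LW minus Creole (right), with the 95% interval of the limma fit; filled points have an adjusted p below 0.05. The 2 IDI1 probes lie on opposite sides of 0 at left (0.94 and -0.46), while all 4 CYP51A1 probes lie below 0 at right (-0.57 to -0.44).

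HMGCS1, the enzyme that joins acetoacetyl-CoA and acetyl-CoA to HMG-CoA, could not be measured. Its probe A_72_P278614 was well above background on 2 of 26 arrays, 1 of Creole HS and 1 of F1 TN, and its probe O9276 on 0 of 26. The highest log2 level of A_72_P278614 was 6.78, on an F1 TN array. No change is given for HMGCS1, which the dim probes leave without a level.

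IDI1, the isomerase that makes the reactive isoprenoid unit dimethylallyl diphosphate, gave opposite answers on its 2 probes. On A_72_P095631 the log2 levels were 6.82, 8.73 and 5.90 in Creole TN and 9.22, 8.61, 7.51, 9.04 and 9.15 in Creole HS. The F1 arrays gave 7.13, 6.29, 5.74 and 6.96 in TN and 6.35, 6.42, 6.83, 8.44 and 8.51 in HS. The LW arrays gave 6.33, 6.0, 6.65 and 6.1 in TN and 7.53, 6.55, 7.03, 6.55 and 6.56 in HS. Levels of 8.44 and above were thus seen on 1 TN and 6 HS arrays, all of them Creole or F1, and the TN and HS ranges overlapped in each breed. The HS minus TN difference was 0.94 ± 0.30 (SE) on the log2 scale, 1.92-fold higher under HS (95% interval 0.32 to 1.56, limma adjusted p = 0.0391), and 13 of 15 HS arrays lay above the TN mean of their breed. Of the 6 group means that of Creole HS (8.71) stood above the next, F1 HS (7.31), by more than the SD, and the others did not differ from their neighbours beyond it. Within slides the difference was -0.18, 1.45, 0.38, 1.38 and 1.5. Without any one of 12 of the 26 arrays this probe no longer passed (adjusted p 0.0197 to 0.0845 over the 26 fits). With the processed signal scaled to the 75th percentile the difference was 1.43 (adjusted p = 0.0219).

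The second IDI1 probe, O10086, carries the gene's own symbol and was well above background on 23 arrays, the exceptions being 2 of F1 HS and 1 of LW HS. Its log2 levels were 6.36, 6.62 and 6.82 in Creole TN and 6.46, 6.38, 6.46, 6.44 and 5.92 in Creole HS. In F1 they were 6.62, 6.28, 6.66 and 5.97 in TN and 5.64, 5.60, 5.70, 6.54 and 6.48 in HS. In LW the 4 TN arrays (6.33, 6.58, 6.36 and 6.51) all lay above the 5 HS arrays (5.81, 5.52, 5.69, 5.84 and 5.89), whereas the ranges overlapped in Creole and F1. Under HS the probe fell by 0.46 ± 0.11 (SE) on the log2 scale, 1.38-fold (95% interval -0.69 to -0.23, limma adjusted p = 0.00817), with 13 of 15 HS arrays below the TN mean of their breed. Its difference was negative on all 5 slides (-0.81 to -0.18), and passed without each of the 26 arrays in turn (adjusted p 0.00233 to 0.0187). The size of the fall depended on the scaling, since with the processed signal scaled to the 75th percentile the difference was -0.96 (adjusted p = 0.00904). The correlation of the 2 IDI1 probes over the 26 arrays was 0.15, or 0.29 for deviations from the group means. Which direction IDI1 took under HS is therefore not settled by these probes.

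**Figure D2:**
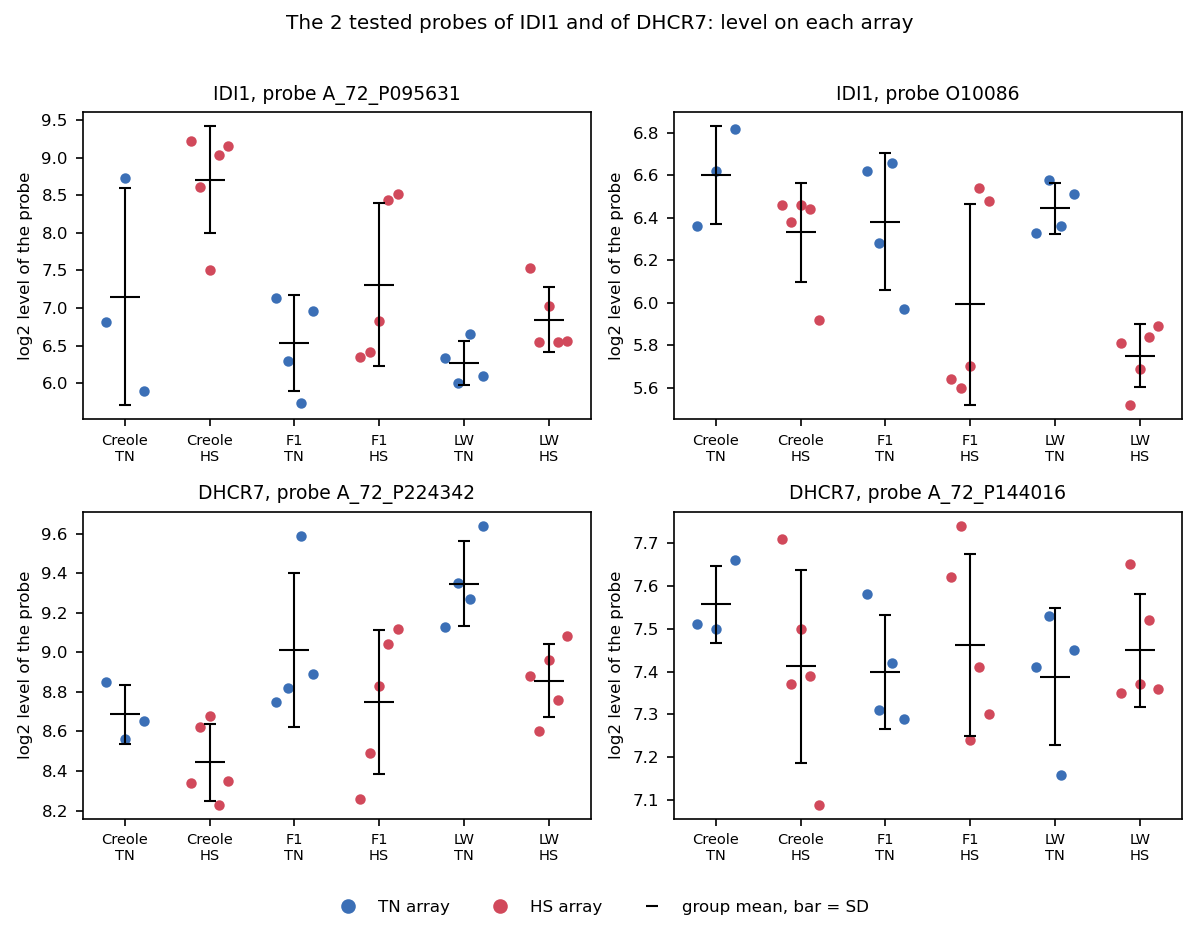
Log2 level on each array in the 6 groups for the 2 tested probes of IDI1 (top) and of DHCR7 (bottom), with group means and SD; each panel has its own axis. The A_72_P095631 levels of Creole HS arrays reach 9.22, while O10086 separates LW TN (6.33 to 6.58) from LW HS (5.52 to 5.89).

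FDFT1, squalene synthase, commits farnesyl diphosphate to sterols. Its brighter probe O10068 ranged from 13.30 to 14.29 on the log2 scale over the 26 arrays. Group means ran from 13.96 in Creole HS to 13.56 in LW TN, and no gap between neighbours in that order exceeded the larger of their SDs. The HS minus TN difference was 0.16 ± 0.08 (SE; limma adjusted p = 0.212, interval -0.01 to 0.34), and that of A_72_P098361 was -0.12 ± 0.10 (adjusted p = 0.445). In F1 pigs the latter probe had a mean of 10.48 (SD 0.15, 4 TN arrays) against 9.98 (SD 0.24, 5 HS arrays). That contrast of -0.50 had an adjusted p of 0.0898 in the limma fit, and the same probe was at 0.18 in Creole and 0.00 in LW pigs. For O10068 the HS minus TN value was 0.33 among LW pigs, 0.28 among Creole and -0.10 among F1, with adjusted p of 0.198, 0.461 and 0.747.

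SQLE, squalene epoxidase, makes the oxygenated squalene that is cyclised next. Its A_72_P444903 levels ran from 9.41 to 10.33 in Creole TN, from 8.96 to 10.67 in Creole HS and from 9.04 to 10.23 in F1 TN. They ran from 8.85 to 10.37 in F1 HS, from 9.62 to 10.54 in LW TN and from 9.30 to 10 in LW HS. Pigs of the same group differed by more than the group means did, and no gap between neighbouring group means exceeded the SD. The HS minus TN difference was -0.26 ± 0.20 (SE; limma adjusted p = 0.427, interval -0.67 to 0.15), and those of the other 3 probes were -0.20, -0.11 and -0.11, none of which passed.

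LSS, lanosterol synthase, closes the sterol rings. The log2 levels of its probe O7666 were 7.92, 8.26 and 7.87 in Creole TN and 8.04, 7.92, 8.02, 7.89 and 7.13 in Creole HS. In F1 they were 8.12, 7.94, 8.14 and 7.94 in TN and 7.70, 7.50, 7.32, 8.03 and 7.93 in HS. In LW they were 7.48, 7.77, 7.35 and 7.10 in TN and 7.07, 6.88, 6.92, 7.16 and 7.05 in HS. The LW HS arrays were the lowest group, 1 Creole HS array lay at their level, and TN and HS ranges overlapped in every breed. Under HS LSS fell by 0.33 ± 0.10 (SE) on the log2 scale, 1.26-fold (95% interval -0.53 to -0.13, limma adjusted p = 0.0272), and 13 of 15 HS arrays lay below the TN mean of their breed. Within the 5 slides its difference was -0.60 to -0.17. In the order of the group means, which ran from 8.04 in F1 TN to 7.02 in LW HS, the only gap larger than the SD was that from LW TN (7.42) to LW HS. The call was lost without Creole TN replicate 2 (adjusted p = 0.0511) or LW TN replicate 2 (0.0589), without the breed term (-0.305, adjusted p = 0.236), and with the processed signal scaled to the 75th percentile (-0.34, adjusted p = 0.0546).

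CYP51A1, the cytochrome P450 that removes a methyl group from lanosterol, did not pass for temperature on any of its 4 probes, whose differences were 0.10, 0.13, -0.06 and 0.13. On its brightest probe, A_72_P177531, the interval of the HS minus TN difference was -0.12 to 0.31. The intervals of A_72_P155691, A_72_P440876 and A_72_P690508 were -0.12 to 0.38, -0.28 to 0.17 and -0.07 to 0.33. Within LW pigs A_72_P440876 was at -0.41 (limma unadjusted p = 0.0229, adjusted p = 0.214), and at 0.17 in Creole and 0.11 in F1 pigs. The other CYP51A1 probes were at 0.01, 0.11 and 0.00 within LW pigs.

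DHCR7, the reductase that turns 7-dehydrocholesterol into cholesterol, was read by 2 tested probes that did not behave alike. On A_72_P224342 the log2 levels were 8.85, 8.56 and 8.65 in Creole TN and 8.34, 8.62, 8.68, 8.23 and 8.35 in Creole HS. In F1 they were 8.75, 8.82, 9.59 and 8.89 in TN and 8.26, 8.49, 8.83, 9.04 and 9.12 in HS. In LW the TN arrays (9.13, 9.35, 9.27 and 9.64) all lay above the HS arrays (8.88, 8.60, 8.96, 8.76 and 9.08), while Creole and F1 ranges overlapped. Under HS this probe fell by 0.34 ± 0.10 (SE), 1.26-fold (interval -0.55 to -0.13, limma adjusted p = 0.0311), in 13 of 15 HS arrays relative to their breed's TN mean and on all 5 slides (-0.42 to -0.13). The call was lost without any one of 7 of the 26 arrays (adjusted p 0.016 to 0.0624 over the 26 fits), without the breed term (-0.361, adjusted p = 0.0773) and with the mean of both probes (-0.168, adjusted p = 0.0508). A_72_P144016 ranged from 7.09 to 7.74 over all arrays, and its HS minus TN difference was 0.00 ± 0.07 (adjusted p = 0.998). Among the group means, from 9.35 in LW TN to 8.45 in Creole HS, the only gap of A_72_P224342 beyond the SD was the last, from Creole TN (8.69) to Creole HS. The third probe, O7475, which carries the gene's symbol, was well above background on 1 of 26 arrays and was not tested. The correlation of the 2 tested probes over arrays was -0.28.

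The second question was whether the response to temperature differed between breeds. Within Creole, F1 and LW pigs, 0 of the 15 member probes passed in each breed in the limma fit with 6 group means, where 0.0537, 0.421 and 1.52% of all probes passed. At an unadjusted p under 0.05 the counts were 1, 2 and 5 of 15, beside 11.1, 15.9 and 16.7% of all probes. The smallest adjusted p was 0.0548, for IDI1 O10086 in LW pigs, with a difference of -0.70. For LSS the HS minus TN value was -0.22 among Creole, -0.34 among F1 and -0.41 among LW pigs, and for DHCR7 A_72_P224342 they were -0.24, -0.26 and -0.49. For IDI1 A_72_P095631 they were 1.56, 0.78 and 0.58. The test of the difference between breeds (interaction) passed for 0 of 15 probes, and at an unadjusted p under 0.05 for 2, FDFT1 A_72_P098361 and CYP51A1 A_72_P440876. Of all probes 0.00224% passed that test, and 5.23% had an unadjusted p under 0.05.

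The third question was whether LW and Creole pigs differed, over both temperatures. No contrast of breeds within 1 temperature was made. LW pigs had lower CYP51A1, LSS and IDI1 than Creole pigs and higher A_72_P224342 of DHCR7, with temperature in the model. Of the 6 tested genes 4 passed, 1 higher and 3 lower in LW, beside 15.3% of all named genes (6.68% higher and 8.62% lower). Of the 15 probes 8 passed, 1 higher and 7 lower, beside 14.3% of all tested probes (6.89% higher and 7.43% lower). The median difference of the 6 genes was -0.32, and that of all named genes was -0.0087. The 4 genes passed without each of the 26 arrays in turn, and with the red blood cell score in the model as well. Of the cell type markers 3 of 5 fibroblast markers were higher in LW (score -0.98 to 0.24 in Creole and -0.20 to 0.68 in LW arrays), as were KDR of the 4 endothelial markers (0.87, limma adjusted p = 0.00136; score -0.47 to 0.10 and 0.04 to 0.19) and PMP22 of the 8 nerve and Schwann cell markers (0.33, adjusted p = 0.00966). LEP, 1 of 7 adipocyte markers, was lower in LW (-1.23, adjusted p = 0.0439; score of the 7 -0.05 to 0.51 and -0.22 to 0.04), and no red blood cell, skeletal muscle, macrophage, keratinocyte or adrenal cortex marker passed between breeds. The part of these markers in the breed differences was not tested.

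All 4 probes of CYP51A1 were lower in LW. The A_72_P177531 levels were 12.40, 12.22 and 12.76 in Creole TN and 13.10, 13.02, 12.64, 12.49 and 12.21 in Creole HS. They were 12.24, 11.99, 11.98 and 12.07 in LW TN and 12.01, 11.73, 11.95, 12.21 and 12.52 in LW HS. Of the 9 LW arrays 7 lay below every Creole array, and the F1 arrays, from 12.06 to 12.83, lay across both. The LW minus Creole difference was -0.52 ± 0.12 (SE) on the log2 scale, 1.44-fold lower in LW (interval -0.78 to -0.26, limma adjusted p = 0.00742). The differences of the other probes were -0.57, -0.44 and -0.44, with adjusted p of 0.00625, 0.0147 and 0.0455. The last of these, A_72_P155691, lost its call without any one of 14 of the 26 arrays (adjusted p 0.0156 to 0.1 over the 26 fits), with slide as a fixed block (0.1) and with no filter on dim probes (0.0596). In the order of the 6 group means the only gap larger than the SD lay between F1 TN (12.42) and LW HS (12.08). Within the 4 slides that held both breeds the A_72_P177531 difference was -0.90 to -0.07.

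For LSS, whose array values are given above, the LW minus Creole difference was -0.71 ± 0.12 (SE) on the log2 scale, 1.63-fold lower in LW (interval -0.95 to -0.46, limma adjusted p = 0.000586). Of 9 LW arrays 5 lay below every Creole array, and the lowest Creole value, 7.13, was that of the single low Creole HS array. The difference was negative on each of the 4 slides with both breeds (-0.87 to -0.21). The F1 value lay 0.30 above the mean of the parent breeds with an unadjusted p of 0.0067 and an adjusted p of 0.365.

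IDI1 was lower in LW on both probes, with differences of -1.47 ± 0.36 (SE) on A_72_P095631 (limma adjusted p = 0.00918, 2.77-fold) and -0.41 ± 0.14 on O10086 (adjusted p = 0.0456, 1.32-fold). On A_72_P095631 0 of 9 LW arrays lay below every Creole array, since 1 Creole TN array had a level of 5.90. On the 4 slides with both breeds its difference was -2.77 to -1.03, whereas that of O10086 was -0.49, -0.37 and -0.41 on slides 2, 3 and 4 and 0.08 on slide 5. The -2.77 is that of slide 3, whose only Creole array was the Creole TN array with a level of 8.73. On O10086 the call was lost when 1 of 14 of the 26 arrays was left out (adjusted p 0.0244 to 0.0937), with slide as a fixed block (0.0628) and with no filter on dim probes (0.0603). With the processed signal scaled to the 75th percentile the O10086 difference was -0.93 (adjusted p = 0.0328), and with the mean of both probes the IDI1 difference was -0.94 (adjusted p = 0.00599). Thus the 2 probes had the same direction between breeds and opposite directions between temperatures.

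For DHCR7, A_72_P224342 was higher in LW by 0.51 ± 0.12 (SE), 1.43-fold (interval 0.26 to 0.77, limma adjusted p = 0.00784), and 7 of 9 LW arrays lay above every Creole array. A_72_P144016 differed by -0.04 ± 0.08 (adjusted p = 0.785). The breed difference of DHCR7 thus rests on 1 probe, and with the mean of both probes it was 0.24 (adjusted p = 0.0228). FDFT1 (-0.11, adjusted p = 0.53) and SQLE (-0.06, adjusted p = 0.902) did not pass, and the intervals of their differences were -0.32 to 0.11 and -0.56 to 0.44. For the F1 pigs against the mean of both parents, 0 of 15 member probes passed in the limma fit, where 0.00671% of all probes passed, and 1 of 15 had an unadjusted p under 0.05, as did 8.69% of all probes.

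**Figure D3:**
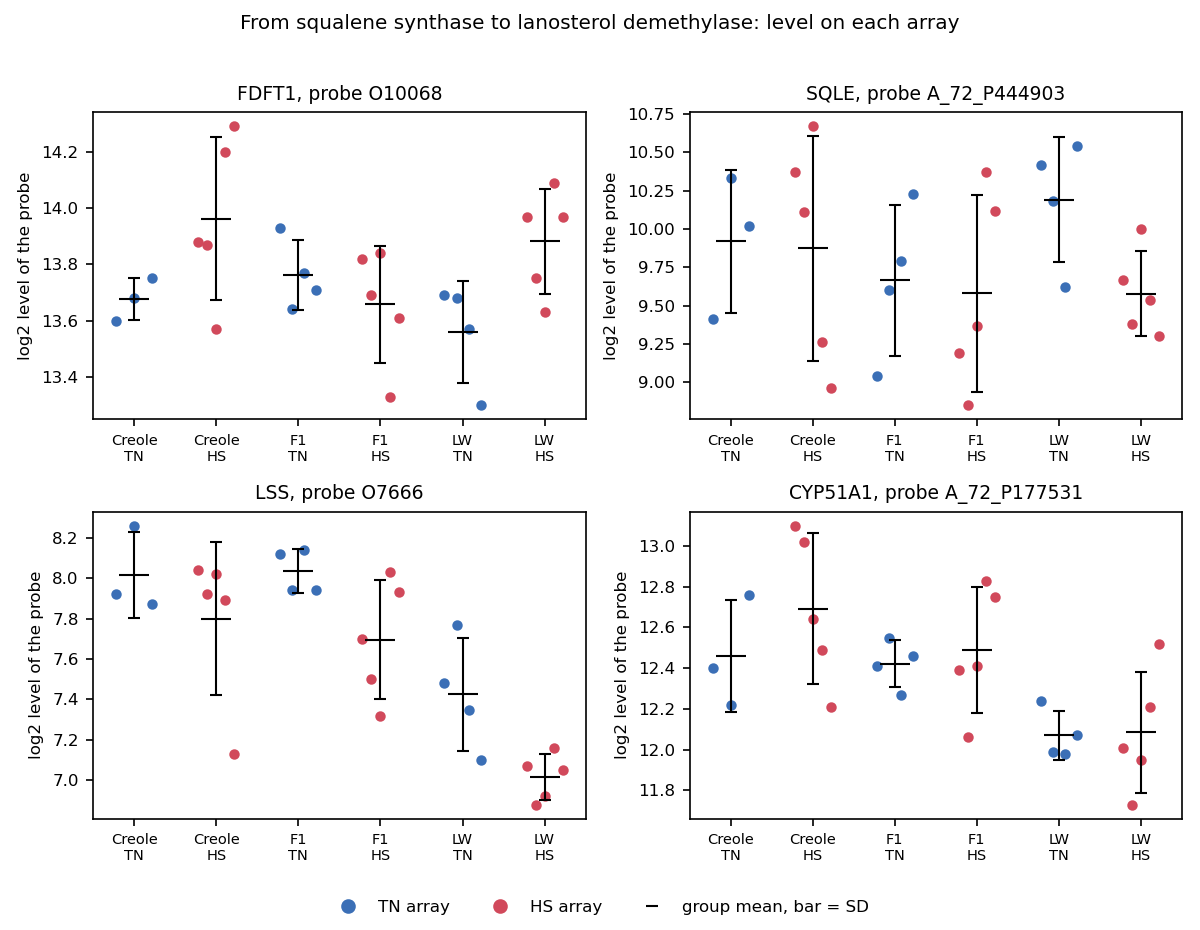
Log2 level on each array for the brightest tested probe of FDFT1, SQLE, LSS and CYP51A1, with group means and SD; each panel has its own axis. LSS is lowest in LW HS (7.02 ± 0.11), and CYP51A1 has 7 of 9 LW arrays below every Creole array.

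The probes were next compared over the 26 arrays as a description. The points share slides and 1 normalisation, and the probes of a gene share a transcript. CYP51A1 probes correlated with each other at 0.74 to 0.93 and SQLE probes at 0.62 to 0.98, of which 0.98 is the overlapping pair. Across genes, LSS correlated with IDI1 O10086 at 0.71 and with CYP51A1 A_72_P177531 at 0.62 (0.68 and 0.47 for deviations from the group means), but with IDI1 A_72_P095631 at 0.26 and with DHCR7 A_72_P224342 at -0.12. FDFT1 O10068 and SQLE A_72_P444903 correlated at -0.58, and at -0.69 for deviations from the group means. The correlation of O10068 with the other 3 SQLE probes was -0.56, -0.43 and -0.14, and that of the other FDFT1 probe, A_72_P098361, with the 4 SQLE probes ran from -0.19 to 0.27, so the relation of these neighbouring steps depended on the probes taken. An example, chosen after the values were seen, is the F1 HS group. Its replicates 4 and 5, from slides 4 and 5, had the 2 highest levels of the group for both IDI1 probes, LSS, SQLE A_72_P444903, CYP51A1 A_72_P177531 and DHCR7 A_72_P224342, and the lowest levels of FDFT1 O10068 (13.33 and 13.61) and A_72_P098361 (9.76 and 9.75).

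A member score, the mean over the 6 genes of the level minus its mean over all arrays, was set against 10130 other named genes. The 10 with the highest Pearson correlation over 26 arrays were SEC22B (0.809), NLRC5, COX16, AS3MT, BORCS7, CYB5A, HTATIP2, LOC100525232, MATK and HPS5 (0.765). For deviations from the group means their correlations were 0.567 to 0.787. The SD over arrays of A_72_P095631 was 1.1, against 0.23 to 0.53 for the brightest tested probe of each of the other 5 genes, so the score leans on IDI1.

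The other genes of the route were taken from lists of general knowledge. Of the synthesis enzymes outside the members, 9 of the 11 reported here were tested, and 1 was lower under HS and none higher. Of all named genes 12.6% passed in that contrast. The median difference of the 9 enzymes was -0.22, with 8 of 9 negative values, and that of all named genes was -0.0047. The share of negative values over all named genes was not counted. The enzyme that passed was ACAT2, the thiolase that makes acetoacetyl-CoA, at -0.60 (limma adjusted p = 0.00391). ACAT2 was also lower in LW than in Creole pigs (-0.50, adjusted p = 0.0353), as was PMVK, phosphomevalonate kinase (-0.34, adjusted p = 0.0326). Thus 2 of the 9 enzymes passed between breeds, both lower in LW, with a median of -0.25, where 15.3% of all named genes passed.

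In the lists that follow, the counts stand beside 12.6% of all named genes that passed for temperature and 15.3% between breeds. With lists this short they are a description and no test. Among 6 tested genes of sterol sensing, 0 passed for temperature in the limma fit, with a median of -0.04. The 2 with the smallest p were SREBF1 (-0.28, adjusted p = 0.256) and SREBF2 (0.17, adjusted p = 0.257), which encode the SREBP factors. INSIG2, which holds the SREBP complex in the endoplasmic reticulum, was higher in LW (0.29, adjusted p = 0.0167), the only 1 of these 6 to pass between breeds. Among 10 tested genes of sterol traffic, esterification and efflux, 0 passed for temperature, with a median of 0.03, and the 2 with the smallest p were STARD4 (-0.27, adjusted p = 0.125) and MYLIP (0.35, adjusted p = 0.141). NPC1, which exports cholesterol from lysosomes, was lower in LW (-0.52, adjusted p = 0.00773), the only 1 of these 10 to pass between breeds. Among 6 tested genes of the isoprenoid branches, GGPS1, the synthase of geranylgeranyl diphosphate, was lower under HS (-0.31, adjusted p = 0.0026) and lower in LW (-0.30, adjusted p = 0.0105). No other gene of that list passed in either contrast.

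**Figure D4:**
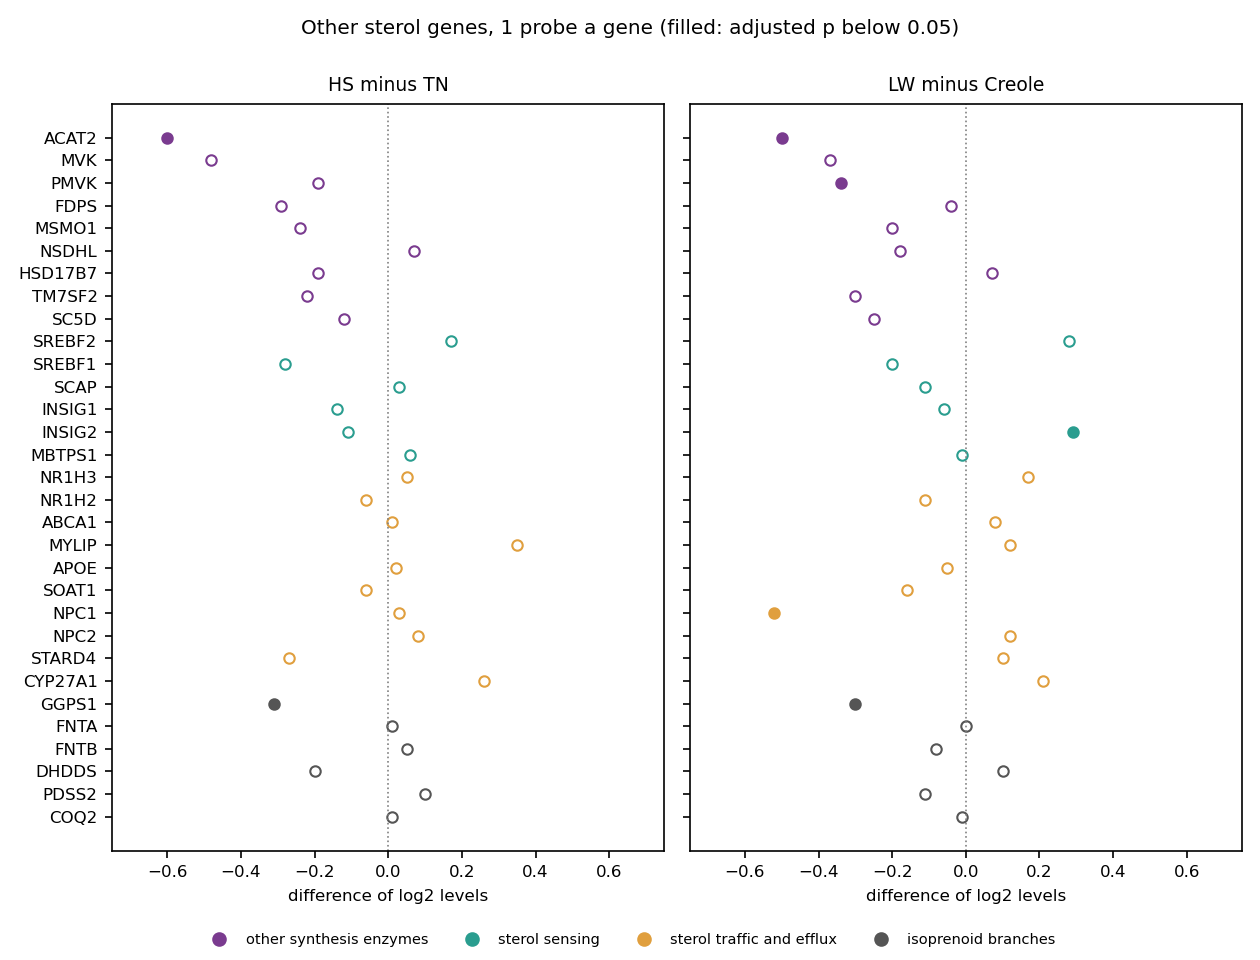
Difference of log2 levels for the other tested sterol genes, 1 probe a gene, HS minus TN (left) and LW minus Creole (right); filled points have an adjusted p below 0.05. ACAT2 and GGPS1 are filled in both panels, and PMVK, INSIG2 and NPC1 at right.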

How the data were processed

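The deposited scanner files hold pixel intensities from the authors' Agilent Feature Extraction 10.10.1.1 run. The authors' value table of the same arrays holds log2 quantile-normalised values and was used as an alternative. The deposited median pixel intensity was quantile normalised over all noncontrol spots and taken to log2, non-uniform spots were left out, and repeat spots were averaged. The test took probes that rose well above background on 8 or more of the 26 arrays, with limma 3.58.1 in R 4.3.3 (lmFit, eBayes with an intensity trend), with breed and temperature as terms or with a mean for each of the 6 groups. Benjamini-Hochberg adjustment ran over 44703 probes, at a threshold of 0.05. Intervals use the residual degrees of freedom. Within-slide differences between temperatures use levels minus the mean of the breed, and those between breeds use levels minus the mean of the temperature. A gene was represented by its tested probe with the highest mean level. The code was tested on simulated data. Genes named were the members with all probes, list genes that passed (or the 2 with the smallest p) and the 10 most correlated genes. Members and lists were chosen with earlier results of these data known. The cell type and pathway lists come from general knowledge, and 1 gene of the synthesis list is not reported here. The pen, slaughter day, father and mother terms of the study's own model are not in the labels and were not used, and no promoter or protein sequence was used here. The number of arrays limits the precision. The alternatives were other scaling, background correction, filters, moderation, weights, slide blocks, probe averaging, a red blood cell covariate, no breed term, probes named only by symbol or accession (chosen after seeing the data), and leaving out each array.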

Additional observations from a re-analysis of the deposited data

Results flagged for a closer look

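Among 75 groups of 4 or 5 arrays checked for a sample far from the others, 3 had one, and chance alone gives about 1 in 20. On DHCR7 A_72_P224342, F1 TN replicate 3 had a log2 level of 9.59, while the other 3 arrays lay from 8.75 to 8.89. On IDI1 O10086, Creole HS replicate 5 had 5.92, while the other 4 lay from 6.38 to 6.46. On LSS O7666, the same Creole HS replicate 5 had 7.13, while the other 4 lay from 7.89 to 8.04.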

How the results depend on the processing

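No paired analysis was possible because TN and HS arrays are of different pigs and the labels do not give the litter. The replicate numbers used here follow accession order. For HS minus TN, the member genes past the threshold were 3 of 6 and fell to 1 with the mean of all probes of a gene, 0 with the red blood cell score as a covariate and 0 without the breed term. The share of all tested probes (or probe means) that passed went from 12.2% to 11.1, 2.95 and 7.9% in these settings. The changes stayed at -0.305 for LSS, -0.361 for DHCR7 and 1.018 for IDI1 without the breed term, and at -0.331 for DHCR7 and 1.096 for IDI1 with the red blood cell score, whereas LSS went to -0.216 with that score. The member probes past it were 4 of 15, and were 0 and 1 under the latter 2 settings in that order, while the other sterol genes were 2 and were 1 with the red blood cell score. Leaving out 1 array gave 0 to 3 member genes, 1 to 4 member probes and 2 to 4 other sterol genes. Without Creole TN replicate 1, F1 TN replicate 3 and LW TN replicate 2 the member genes were 1, 1 and 0. Of all probes 11, 9.72 and 8.88% then passed, beside 12.2% with all arrays. The cause was not tested. The counts for LW minus Creole (3 or 4 genes) and the counts of 0 for F1 minus mid-parent, for the interaction and within each breed stayed on their side under all settings run.

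With the mean of all probes of a gene IDI1 was at 0.24 (limma adjusted p = 0.413) and DHCR7 at -0.168 (0.0508). With only probes named by symbol or accession, which leaves O10086, the IDI1 change was -0.46 (adjusted p = 0.00817), so 0 genes were then higher and 2 lower. That setting leaves DHCR7 with no tested probe. LSS lost its call without Creole TN replicate 2 (adjusted p = 0.0511) and LW TN replicate 2 (0.0589). DHCR7 lost it without Creole TN 1 (0.0519), F1 HS 2 (0.0505), F1 TN 3 (0.0624), LW HS 2 (0.0525), LW HS 4 (0.0512), LW TN 2 (0.0547) or LW TN 4 (0.0558). IDI1 A_72_P095631 lost it without Creole HS 1 (0.0555), 4 (0.0551) or 5 (0.0579), Creole TN 1 (0.0744) or 3 (0.0845), F1 HS 4 (0.0567) or 5 (0.0575), F1 TN 2 (0.0545) or 3 (0.0725), LW HS 1 (0.0569) or 3 (0.0504), or LW TN 2 (0.0617), and with no filter on dim probes (0.0517). Apart from that turn of IDI1, signs turned for values near 0. For temperature, A_72_P144016 of DHCR7 was at 0.027 with 75th percentile scaling, 0.003 with the red blood cell score, 0.002 without the breed term and -0.028 to 0.026 with 1 array left out, and A_72_P440876 of CYP51A1 at 0.023 with the red blood cell score. For LW minus Creole, A_72_P144016 was at 0.017 with slide as a fixed block, and with 1 array left out SQLE ranged from -0.177 to 0.065 and its probe A_72_P088686 from -0.157 to 0.072. No scaling moved the median of all probes by more than 0.016, but 75th percentile scaling raised the size of both IDI1 temperature changes (to 1.43 and -0.96) and of the O10086 breed difference (to -0.93) by over 1.5 times. Probes near background, the 2 of HMGCS1 and O7475 of DHCR7, allow no statement on those transcripts.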
